A study of Mus musculus with 36 samples.

Results

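The collagen chain family was followed through RNA-seq of mouse hearts. Members were all genes named Col, a number, a and a number, which gave 42 of the 25626 genes listed. They were described as 11 fibrillar chains, 6 basement membrane chains, 6 collagen VI chains, 8 fibril-associated chains, 2 multiplexins, 2 short chains, 4 transmembrane chains and 3 others. Of the 42 chains, 38 reached a normalized count of at least 10 in at least 6 libraries and were tested, and Col2a1, Col24a1, Col6a4 and Col19a1 did not.

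A collagen is a triple helix of 3 chains, so the chains of one type are made together and in set proportions. Fibrillar collagens I, III and V build the tensile fibres of the heart's interstitium and come mainly from fibroblasts. Collagen IV makes the sheet that lies under endothelium and around each cardiomyocyte, collagen VI makes beaded filaments next to it, and the fibril-associated collagens sit on the surface of fibres. More fibrillar collagen stiffens the ventricle and is the hallmark of cardiac fibrosis.

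Whole hearts of 36 mice were sequenced, with 6 mice in each of 6 groups. The label cSirt4-Tg (Tg) names a transgene for Sirt4, a mitochondrial sirtuin, and the other mice are controls (Con). Each genotype had sham surgery (Con-Sham, Tg-Sham) or TAC, a constriction of the transverse aorta that puts the left ventricle under pressure (Con-TAC, Tg-TAC). All 4 of these groups received vehicle, and a further pair of TAC groups received MitoQ, an antioxidant that gathers in mitochondria (Con-TAC-MQ, Tg-TAC-MQ). The stated question was how mitochondrial reactive oxygen species worsen the cardiomyopathy of the Tg mice. The sources used here do not give the promoter of the transgene, the strain or the age.

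Several libraries and RNA measures bear on every comparison. Depth ran from 14.8 to 60.0 M assigned reads (M, 1e6), with a median of 28.4 M. Sirt4 itself was 313 to 473 in the Tg-TAC libraries and 253 to 385 in the Con-TAC libraries, so it does not check the genotype label. Dmd, the dystrophin gene, was 1044 to 1838 in 17 of the 18 Tg libraries, 2493 in Tg-TAC 6 and 2349 to 5230 in the Con libraries. The library labelled Tg-TAC 6 had 3535 for the load-responsive natriuretic peptide gene Nppa, below all 6 Tg-Sham libraries (9398 to 38011), and its tested collagen chains were above every Tg-Sham library for 3 of 38, against 21 to 29 of 38 in the other Tg-TAC libraries. The library Con-TAC-MQ 3 held the highest value of its group for 21 of 38 chains, and Con-TAC 6 for 29 of 38. The small nuclear RNA Rn7sk was 1228 to 7997 in the sham libraries and 16.8 to 359 in all TAC libraries, so surgery and how the libraries were prepared cannot be told apart. All MitoQ libraries and Con-TAC 6 carry 20 or 21 in their names, the other Con-TAC libraries 7 to 14. This number and MitoQ therefore cannot be told apart either. Names with 29 to 31 belong to Con-Sham 4, 5 and 6, Tg-Sham 4, 5 and 6 and Tg-TAC 6, the only TAC library among them. The number therefore cannot be fully told apart from surgery, or from the low values of Tg-TAC 6. The ribosomal RNA entry Rn18s-rs5 took 0.59% to 1.39% of reads in the MitoQ libraries and 1.55% to 11.8% in the vehicle libraries. This difference cannot be told apart from MitoQ.

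Collagen mRNA in the Con-Sham heart was mainly basement membrane and fibrillar. Per kb of transcript, Col4a1 stood at 2225 ± 281 and Col4a2 at 1801 ± 216 (SD, n = 6). Col3a1 followed at 1088 ± 176, Col1a2 at 706 ± 79.7, Col6a2 at 652 ± 34.9, Col6a1 at 537 ± 59.3, Col1a1 at 508 ± 52.8 and the multiplexin Col15a1 at 499 ± 38.1. The last 3 of these lie within their SD of each other, and Col1a2 and Col6a2 differ by less than the SD of Col1a2. The summed level of all 42 chains per kb was 7997 to 10081 in Con-Sham (median 9506), 9565 to 16494 in Tg-Sham (median 13237), 9715 to 20428 in Con-TAC (median 12839) and 10018 to 33159 in Tg-TAC (median 29207). With MitoQ it was 10944 to 34490 in Con-TAC-MQ (median 13109) and 15962 to 19761 in Tg-TAC-MQ (median 18479). The Tg-TAC group therefore had the highest median and one library, Tg-TAC 6, among the sham values.

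The make-up of the collagen mRNA differed between the genotype labels already at sham. Fibrillar chains took 28.7% to 32.6% of the summed level per kb in Con-Sham and 38.1% to 45.7% in Tg-Sham, with no overlap. Basement membrane chains took 43.6% to 47.8% in Con-Sham and 30.4% to 39.1% in Tg-Sham. Their own level differed little, with a median of 4367 in Con-Sham and 4576 in Tg-Sham, while the fibrillar level had medians of 2949 and 5441. The fibrillar share was 28.5% to 35.8% in Con-TAC, 38.3% to 50.9% in Tg-TAC and 41.2% to 44.8% in Tg-TAC-MQ. In Con-TAC-MQ it was 24.9% to 33.7% in 5 libraries and 55.9% in Con-TAC-MQ 3. Thus 17 of the 18 Con libraries lay below the lowest of the 18 Tg libraries, 38.1%, and Con-TAC-MQ 3 lay above them all. Tg-TAC 6, at 38.3%, lay within the range of the Tg libraries in share while its total was the lowest of its group. Collagen VI held 10.8% to 16.9% in the Tg libraries and 8.0% to 16.8% in the Con libraries. These shares are sums over the members and were not tested.

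**Figure D1:**
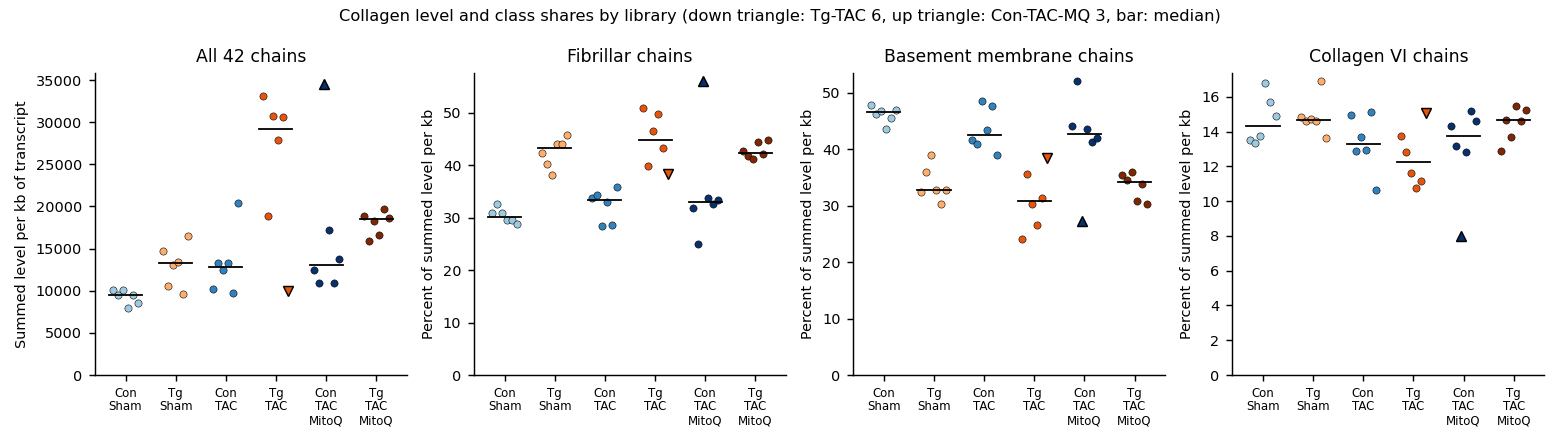
Summed level per kb of transcript of all 42 collagen chains (left) and the percent of it taken by fibrillar, basement membrane and collagen VI chains, each point 1 library and each bar the median of 6. The fibrillar share of every Tg library is at least 38.1%, and every Con library but Con-TAC-MQ 3 (up triangle, 55.9%) is at or below 35.8%.

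Cell type markers moved alongside. The summed macrophage markers, 7 genes, were 3792 to 4875 in Con-Sham and 6213 to 8635 in Tg-Sham, and 4 of the 7 were called higher in Tg-Sham, where 0.873% of all genes were called. The sum was also 10046 in Con-TAC-MQ 3, against a group median of 4447. The 8 fibroblast markers summed to 39538 to 49387 in Con-Sham and 49010 to 65864 in Tg-Sham, with 2 called. Con-TAC-MQ 3 had the lowest fibroblast sum of its group, 33436, and the highest collagen. Cardiomyocyte markers, 8 genes, had a median sum of 1.95e+06 in Tg-Sham and 1.41e+06 in Tg-TAC. Every marker of these 3 lists was detected in each group. Their part in the collagen values was not tested, and in whole hearts fewer cells of a type cannot be told apart from less RNA per cell.

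Each comparison was read from 1 limma fit over 16275 genes, with log2(value + 1), Benjamini-Hochberg adjustment over all of them and a threshold of 0.05. In Con-TAC against Con-Sham 4 chains rose and 1 fell of 38, against 5.3% of all genes called (2.65% higher and 2.65% lower). In Tg-TAC against Tg-Sham 17 rose and 1 fell, with 16.7% of all genes called (7.91% higher and 8.77% lower). The median log2 difference of the chains was 0.40 and 0.76, where that of all genes was 0.01 and -0.01. Whether TAC acted differently in the genotypes was tested directly, and no chain and no gene passed, 0% (limma; 1 chain and 949 genes at an unadjusted p under 0.05, and no chain by edgeR or DESeq2). The longer list in Tg hearts is therefore not shown to be a larger response.

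These counts depend on single libraries and on how the spread is estimated. The shares of all genes given here are those of the main fit. Counts from other fits, here and below, have no such share beside them, so a larger count there is not shown to be particular to collagen. Without Tg-TAC 6 the Tg count was 23 higher and 2 lower, and estimated from the 12 compared libraries alone it was 2 higher and 1 lower. The Con count of 5 became 3 or fewer without any one of Con-Sham 2, 3, 4, 5 or 6 or Con-TAC 2, 3, 4 or 6. It was 0 among libraries whose names carry 7 to 14, of which 5 are Con-TAC and 3 are Con-Sham.

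Between the genotype labels, 8 chains were higher in Tg-TAC than in Con-TAC and none lower (6.48% of all genes were called and 3.19% were higher). In sham hearts no chain passed in limma, with 13 of 38 at an unadjusted p under 0.05, none by edgeR and 1 by DESeq2 (0.873% of genes called). Yet 30 of 38 differences were positive with a median of 0.49, and for 8 chains (Col1a1, Col1a2, Col3a1, Col5a2, Col6a1, Col6a2, Col14a1 and Col8a1) every Tg-Sham library lay above every Con-Sham library, against 2.75% of all genes. The fit to those 12 libraries alone called 10 chains. The Tg-TAC count was 20 without Tg-TAC 6, 16 without Con-TAC 6, 5 without Con-TAC 1 or Tg-TAC 5, 3 without Tg-TAC 1 and 2 without Con-TAC 3, Con-TAC 5 or Tg-TAC 4. From the 12 compared libraries alone it was 0. Among libraries named 7 to 14, which leave out Tg-TAC 6 and Con-TAC 6 here, it was 24. That count is therefore not separate from leaving out these libraries. The share of all genes called in these fits is not given, so these counts are not set against all genes.

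With MitoQ, 1 chain rose and 5 fell of 38 in Tg-TAC-MQ against Tg-TAC (17.3% of genes were called, 9.89% higher and 7.44% lower). The chains were called at 15.8%, near the share of all genes, so this count is not particular to collagen. In Con-TAC-MQ against Con-TAC no chain passed, with 4 of 38 at an unadjusted p under 0.05, none by edgeR and 1 by DESeq2 (3.23% of genes called). No chain or gene, 0%, passed for the difference between these responses (limma; 4 chains at an unadjusted p under 0.05, none by edgeR or DESeq2). The Tg count of 6 was 3 without Tg-TAC 4 or Tg-TAC 5 and 17 without Tg-TAC 6. Tg-TAC-MQ against Con-TAC-MQ gave no limma call with all libraries (5 chains unadjusted, none by either other tool, 0.0737% of genes). Without Con-TAC-MQ 3 limma called Col3a1 higher in Tg-TAC-MQ (1.25, adjusted p = 0.0295). Tg-TAC-MQ against Tg-Sham gave no limma call (7 unadjusted, none by either other tool, 0.129% of genes). Con-TAC-MQ against Con-Sham gave none either (22 unadjusted, 2 by edgeR and 18 by DESeq2, 0.707% of genes). The last of these depends on the scaling: with libraries scaled to equal totals of non-mitochondrial genes, which moved the median of all genes by 0.18, it gave 19 chains higher. With the name number as a covariate, 19 chains turned to negative differences instead, such as Col1a1 at -0.49 and Col8a1 at -0.87, none of them called. Con-TAC 6 was the only vehicle library numbered like the MitoQ libraries, so it alone set this covariate for them. It held the highest Con-TAC value for 29 of 38 chains. These reversals therefore cannot tell the name number from the excess of that library.

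**Figure D2:**
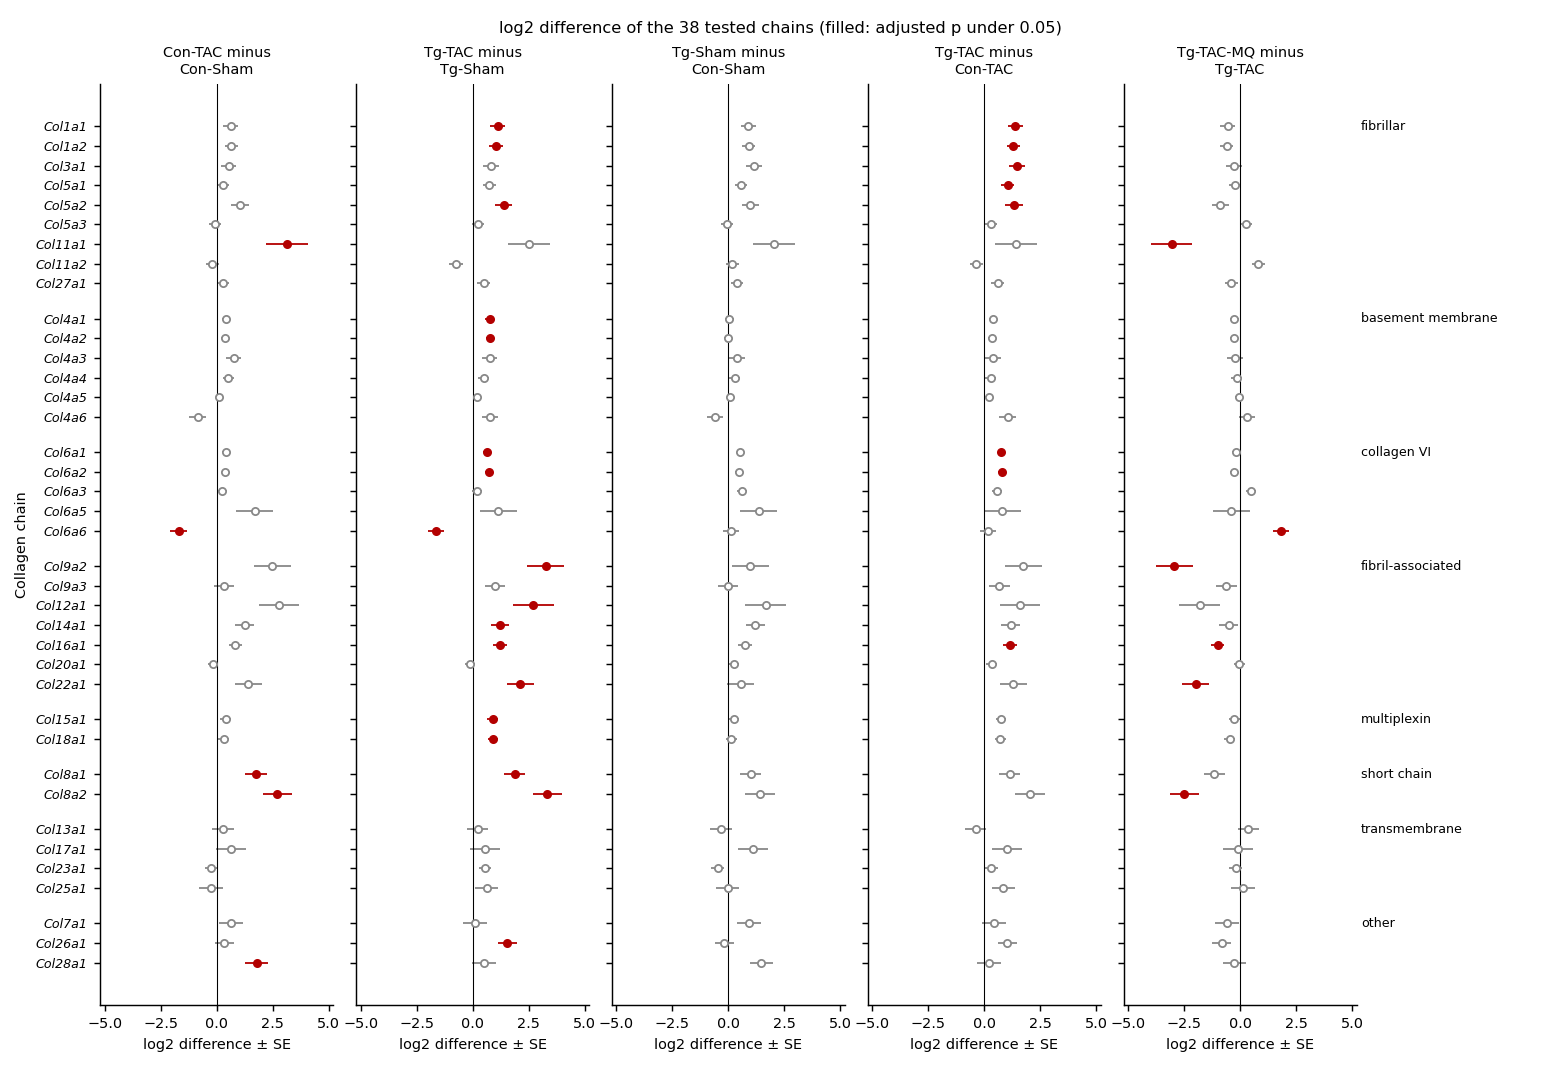
The log2 difference and its SE for the 38 tested chains, grouped by class, in 5 comparisons, with filled points for an adjusted p under 0.05. Most points lie to the right of 0 in the first 4 panels, 17 chains are filled to the right in the second, and Col6a6 (log2 -1.71, -1.64 and 1.82 in the first, second and last panels) runs against Col6a1 and Col6a2.

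Among the 9 tested fibrillar chains, both chains of collagen I and Col5a2 of collagen V were called higher with TAC in Tg hearts with all libraries. Without Tg-TAC 6 limma also called Col3a1 (1.12, adjusted p = 0.0132), Col5a1 (0.95, adjusted p = 0.00961) and Col11a1 (3.58, adjusted p = 0.000948) higher. It then called Col11a2 lower (-0.89, adjusted p = 0.0248), and Col5a3 and Col27a1 did not pass. Col1a1, the main chain of collagen I (ENSMUSG00000001506, mm39 chromosome 11, 94827050 to 94843868), was 2549 to 3299 in Con-Sham (median 3111) and 4007 to 8145 in Tg-Sham (median 5592). It was 2965 to 9575 in Con-TAC (median 4244) and 4239 to 18927 in Tg-TAC (median 16296). After MitoQ it was 3388 to 21844 in Con-TAC-MQ (median 4877) and 6708 to 9473 in Tg-TAC-MQ (median 8274). Con-Sham and Tg-Sham did not overlap, and the overlap of Tg-TAC with Con-TAC came from Tg-TAC 6 on one side and Con-TAC 6 on the other. Col1a1 rose by log2 1.12 (SE 0.34, adjusted p = 0.0223, 5 of 6 libraries) with TAC in Tg hearts, and was higher by 1.39 (SE 0.34, adjusted p = 0.0185, 5 of 6) in Tg-TAC than in Con-TAC. In Con hearts the TAC difference was 0.61 (SE 0.34, adjusted p = 0.277). Neither Tg call is firm against single libraries, since the first was lost without Tg-TAC 1, 4 or 5 and the second without Con-TAC 3 or 5 or Tg-TAC 1 or 4.

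Col1a2, its partner chain, was 5228 to 8957 in Tg-Sham (median 6878) and 5156 to 22626 in Tg-TAC (median 18605), a rise of 1.05 (SE 0.31, adjusted p = 0.0183). Col3a1, the single chain of collagen III (chromosome 1, 45350698 to 45388866), was 4594 to 6927 in Con-Sham (median 6386), 9848 to 19518 in Tg-Sham (median 13266), 5805 to 13799 in Con-TAC (median 8465) and 8599 to 41587 in Tg-TAC (median 28160). Con-Sham and Tg-Sham did not overlap, and Tg-TAC 6 again held the lowest Tg-TAC value. Col3a1 was higher in Tg-TAC than in Con-TAC by 1.46 (SE 0.36, adjusted p = 0.0190), while the TAC differences were 0.82 in Tg (SE 0.36, adjusted p = 0.106) and 0.52 in Con (SE 0.36, adjusted p = 0.394). The call was lost without Con-TAC 3 or 5 or Tg-TAC 1 or 4. In Con-TAC-MQ 3 Col3a1 reached 51016, where the others of that group had 5208 to 13857.

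Collagen V starts fibres and sets their width. Col5a2 (chromosome 1, 24614 bases from Col3a1 and tail to tail with it) was 1157 to 2151 in Tg-Sham (median 1652) and 1171 to 7419 in Tg-TAC (median 5578). It rose by 1.39 (SE 0.38, adjusted p = 0.0137, 5 of 6), a call that held without any 1 library. Col5a1 was higher in Tg-TAC than in Con-TAC by 1.04 (SE 0.28, adjusted p = 0.0292), a call kept by 5 of 12 fits without 1 library, and Col5a3, its minor relative, passed in no comparison (log2 -0.08 with TAC in Con and 0.26 in Tg). Col11a1, a cartilage and developmental chain that pairs with collagen V, was 0 to 2.42 in Con-Sham and 1.10 to 141 in Con-TAC, and rose by 3.12 (SE 0.93, adjusted p = 0.0448), a call kept by 1 of 12 fits without 1 library, and the difference was 2.46 without Con-TAC 6. In Tg-TAC it was 0 in Tg-TAC 6, 32.9 to 100.6 in 4 libraries and 557 in Tg-TAC 4. That library also had cartilage markers summing to 11637, against a group median of 2415, and adipocyte markers summing to 34552, against 103.2. Their part in its values was not tested.

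Upstream sequence is shown for collagen I and III because they are the most abundant fibrillar types here and their windows hold different core motifs. The bases are the 120 before the RefSeq start on GRCm38.p6, read 5′ to 3′ on the gene's strand, chr6:4505498-4505617 (+) for Col1a2 and chr1:45311418-45311537 (+) for Col3a1. Capitals mark the letters TATAAA of the motif named for them. They also mark the CCAAT box. They mark the GC box too, whose letters are GGGCGG, and all 3 were searched on either strand.
Col1a2: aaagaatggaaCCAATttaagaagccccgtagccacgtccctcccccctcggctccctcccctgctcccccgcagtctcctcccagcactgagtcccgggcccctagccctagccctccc
Col3a1: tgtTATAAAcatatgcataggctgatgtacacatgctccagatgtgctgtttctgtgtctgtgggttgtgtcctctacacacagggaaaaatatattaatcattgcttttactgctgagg
The Col1a2 stretch holds a CCAAT box 109 to 105 bases before the start and is 65.8% G or C. The Col3a1 stretch holds TATAAA 117 to 112 bases before the start and is less rich in G and C.

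Over the 250 bases before the start, 35 RefSeq windows matched 33 of the 42 chains. TATAAA stood in 4 of the 35 (11.4%, against 12.4% of all 32851 windows), CCAAT in 12 (34.3% against 33.8%) and GGGCGG in 22 (62.9% against 32.7%), each on either strand. The AP-1 motif TGANTCA stood in 1 (2.9% against 6.7%) and the TEAD motif CATTCC in 4 (11.4% against 12.6%). A match describes these letters and no binding was measured.

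**Figure D3:**
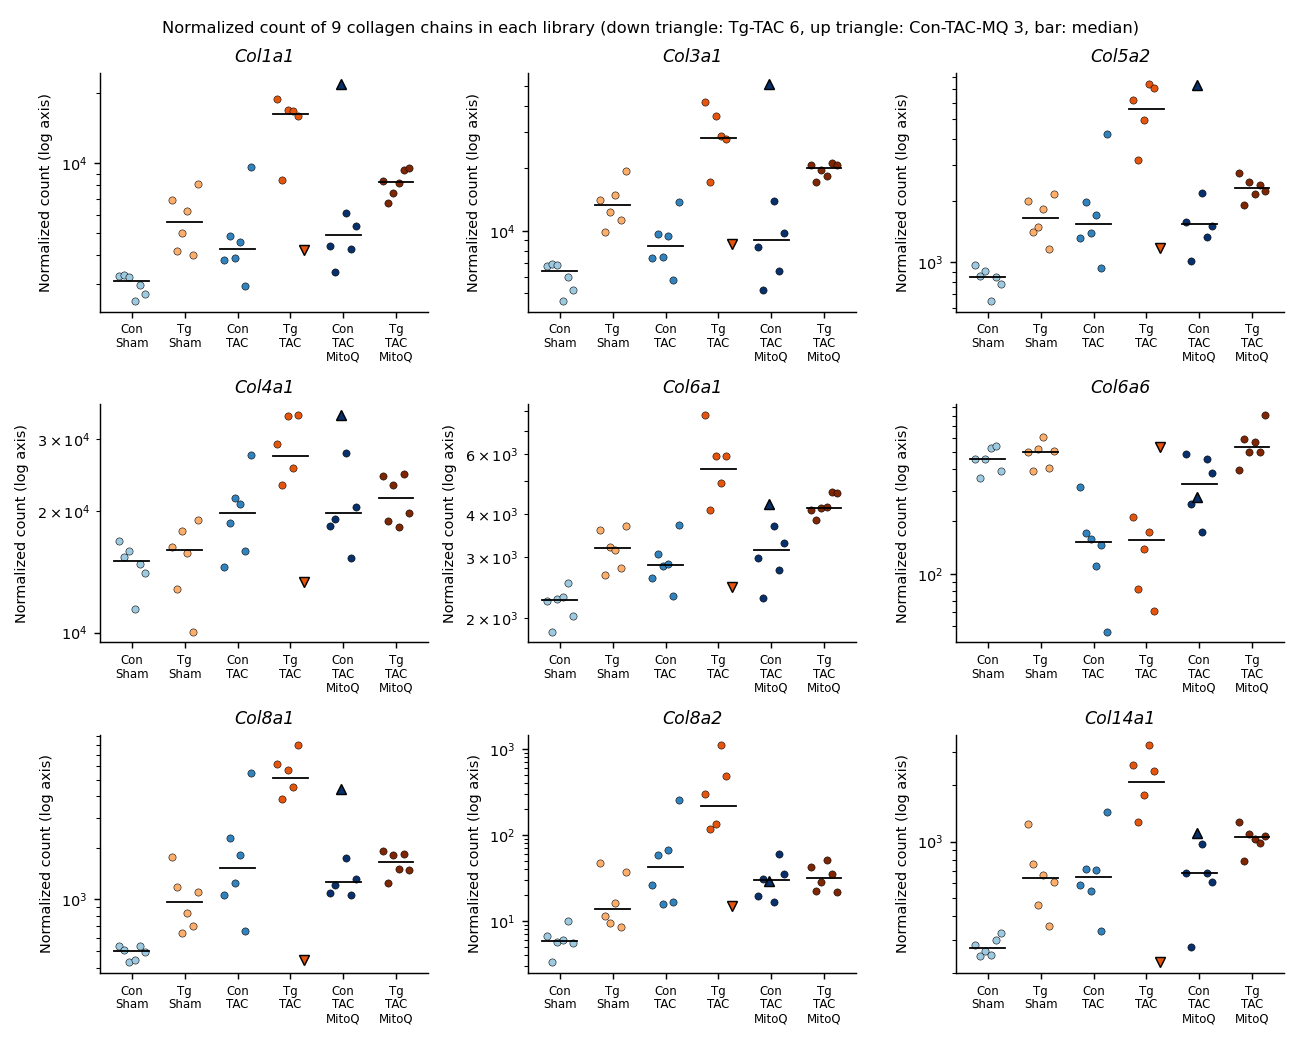
Normalized count (log axis) of 9 chains in the 36 libraries, each point 1 library and each bar the median of 6. Tg-TAC 6 (down triangle) is the lowest Tg-TAC library for Col1a1, Col3a1, Col4a1, Col6a1, Col8a1, Col8a2 and Col14a1, Con-TAC-MQ 3 (up triangle) at the top of its group for Col1a1, Col3a1, Col5a2 and Col8a1, and Col6a6 is lowest in the vehicle TAC groups.

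The basement membrane pair Col4a1 and Col4a2 rose with TAC in Tg hearts and did not separate the genotype labels at sham. Col4a1 (chromosome 8, 11248423 to 11362826) was 11458 to 16833 in Con-Sham (median 15036) and 10058 to 18984 in Tg-Sham (median 16004), with a difference of 0.03 (SE 0.19). It was 14509 to 27435 in Con-TAC (median 19738) and 13310 to 34486 in Tg-TAC (median 27365). It rose by 0.77 (SE 0.19, adjusted p = 0.00812, 5 of 6) in Tg and differed by 0.41 (SE 0.19, adjusted p = 0.209) in Con. Col4a2 (chromosome 8, 11362805 to 11499287) rose by 0.76 (SE 0.17, adjusted p = 0.00419) in Tg, and both calls held without any 1 library. The 2 genes lie head to head and share 22 bases at their starts. Col4a3 and Col4a4, also head to head with 71 bases between them, and Col4a5 and Col4a6, 1308 bases apart, passed in no comparison with all libraries. Without Tg-TAC 6, Col4a3, Col4a4 and Col4a5 were called higher with TAC in Tg (adjusted p = 0.00491, 0.0183 and 0.0371) and Col4a6 in Tg-TAC against Con-TAC (adjusted p = 0.0315). Among libraries named 7 to 14, which leave out Tg-TAC 6 and Con-TAC 6 here, all 4 were called higher in Tg-TAC than in Con-TAC. Col4a5 was 1067 to 2558 over all 36 libraries. Across the class the median TAC difference was 0.39 in Con and 0.76 in Tg, and the median difference of the Tg label at sham was 0.06, against 0.89 for fibrillar chains.

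Collagen VI split into a rising pair and a falling chain. Col6a1 and Col6a2, which make the short arms of the molecule and lie 85161 bases apart on chromosome 10, rose with TAC in Tg by 0.63 (SE 0.17, adjusted p = 0.0110) and 0.72 (SE 0.17, adjusted p = 0.00443). With TAC in Con neither chain passed in limma, and edgeR gave differences of 0.39 and 0.38 (edgeR adjusted p = 0.145 and 0.153). Yet for Col6a2 every Con-TAC library (2992 to 4288) lay above every Con-Sham library (2379 to 2705), as for 2.08% of all genes. Col6a1 was 2672 to 3700 in Tg-Sham (median 3185) and 2464 to 7793 in Tg-TAC (median 5424), with Tg-TAC 6 the lowest. In Con-TAC it was 2325 to 3721 (median 2850), and all 6 of these libraries lay below 5 of the 6 Tg-TAC libraries. Both chains were higher in Tg-TAC than in Con-TAC, by 0.77 (SE 0.17, adjusted p = 0.0127) and 0.80 (SE 0.17, adjusted p = 0.00937), and these were the only 2 of the 8 chains called there whose calls held without any 1 library. Col6a3, the long chain, passed in no comparison with all libraries, with TAC differences of 0.25 in Con and 0.21 in Tg (SE 0.22 each). It was called higher in Tg-TAC than in Con-TAC once Tg-TAC 6 was left out (limma, 0.69, adjusted p = 0.0258). In that fit its TAC difference in Tg was 0.34 and did not pass (limma adjusted p = 0.262).

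Col6a6, a chain that can stand in for Col6a3 (ENSMUSG00000043719, chromosome 9, 105565008 to 105705359), moved the opposite way in both genotypes. It was 355 to 539 in Con-Sham (median 456), 387 to 612 in Tg-Sham (median 501), 46.7 to 313 in Con-TAC (median 152) and 60.8 to 530 in Tg-TAC (median 155). Con-Sham and Con-TAC did not overlap (1.58% of all genes were lower without overlap), and of the Tg-TAC libraries 5 lay at 212 or below and Tg-TAC 6 at 530. It fell by 1.71 on the log2 scale with TAC in Con (SE 0.36, adjusted p = 0.00835, 6 of 6) and fell by 1.64 in Tg (SE 0.36, adjusted p = 0.00366, 5 of 6). With MitoQ it was 173 to 483 in Con-TAC-MQ (median 326) and 396 to 816 in Tg-TAC-MQ (median 536). It rose by 1.82 against Tg-TAC (SE 0.36, adjusted p = 0.00108, 6 of 6), and the difference in Con was 1.2 (SE 0.36, adjusted p = 0.0571). These comparisons share their TAC libraries. All 3 Col6a6 calls held without any 1 library, and the fall in Con was lost among libraries named 7 to 14 and with the name number as a covariate (adjusted p = 0.0876). Schwann cell markers, 6 genes, summed to 447 to 699 in Tg-Sham. Their sum in Tg-TAC was 153 to 573, with Tg-TAC 6 the highest, and in Tg-TAC-MQ 480 to 710. Of the 6, 5 were called lower with TAC in Tg, where 8.77% of all genes were, with a median log2 difference of -1.17. Only 1 was called lower by TAC among Con hearts, where 2.65% of all genes were, with a median of -0.50. The part of these markers in the Col6a6 values was not tested. Col6a5, its neighbour on chromosome 9, was 0 to 45.2 in 35 libraries and 663 in Tg-TAC 4.

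The 120 bases just before the Col6a6 start are shown because it was the one chain called lower with TAC. They lie at chr9:105828086-105828205 (-) on GRCm38.p6 and are 64.2% G or C.
Col6a6: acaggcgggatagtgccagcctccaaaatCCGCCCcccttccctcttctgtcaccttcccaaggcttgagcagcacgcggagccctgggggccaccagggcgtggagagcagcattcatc
Capitals mark the 1 GGGCGG, on the other strand, 91 to 86 bases before the start.

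The fibril-associated chains, which link fibres to each other and to other matrix, had class medians of 1.25 in Con and 1.24 in Tg with TAC, although in Con none of the 7 tested passed (limma; 5 at an unadjusted p under 0.05). In Con edgeR called Col9a2, Col12a1 and Col14a1 (adjusted p = 0.0214, 0.0212 and 0.0335), DESeq2 called these with Col16a1 and Col22a1, and for Col14a1 every Con-TAC library lay above every Con-Sham library. In Tg 5 of 7 rose, where 7.91% of all genes did. Col16a1 was 288 to 571 in Tg-Sham (median 468) and 351 to 1834 in Tg-TAC (median 1267), a rise of 1.24 (SE 0.30, adjusted p = 0.00693). Col9a2, a cartilage chain, was 0 to 5.95 in Tg-Sham and 0 to 122 in Tg-TAC (median 83.7), where Tg-TAC 6 was at 0 and the others at 41.5 or more. It rose by 3.26 (SE 0.83, adjusted p = 0.00795), and Col22a1, a chain of muscle-tendon junctions, by 2.13 (SE 0.60, adjusted p = 0.0159). For Col22a1 the groups did not overlap, at 8.32 to 45.3 and 50.9 to 197 (1.22% of all genes were higher without overlap). These 3 calls held without any 1 library, and without Tg-TAC 6 the rise of Col9a2 was 4.32.

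Col12a1 and Col14a1, which coat type I fibres in loaded tissue, rose by 2.71 (SE 0.91, adjusted p = 0.0384) and 1.22 (SE 0.42, adjusted p = 0.0415). Col14a1 was 356 to 1241 in Tg-Sham (median 637) and 228 to 3255 in Tg-TAC (median 2066), where Tg-TAC 6 held the 228 and the others lay at 1271 or above. Each call was kept in 2 of 12 fits without 1 library, and without Tg-TAC 6 the rises were 3.78 and 1.76. At sham Col14a1 was 244 to 325 in Con (median 271), below every Tg-Sham library, with a difference of 1.19 (SE 0.42, adjusted p = 0.179). With MitoQ in Tg hearts, Col9a2 fell by 2.93 (SE 0.83, adjusted p = 0.0135), Col22a1 (no overlap, 2.91% of genes lower without overlap) by 1.98 (SE 0.60, adjusted p = 0.0220) and Col16a1 by 1.01 (SE 0.30, adjusted p = 0.0209), and Col11a1 of the fibrillar class fell by 3.06 (SE 0.93, adjusted p = 0.0220). The calls of Col22a1, Col16a1 and Col11a1 were lost without Tg-TAC 4 or Tg-TAC 5, Col16a1 also without Tg-TAC 1 and Col11a1 without Tg-TAC-MQ 2 or 5. Without Tg-TAC 6 Col9a2 fell by 3.99 and Col11a1 by 4.12, and without Tg-TAC 4 Col11a1 fell by 2.29. These share the Tg-TAC libraries with the rises above. In Con-TAC-MQ against Con-TAC, Col9a2 differed by -0.03 (SE 0.83) and Col16a1 by 0.01 (SE 0.30).

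The multiplexins Col15a1 and Col18a1, basement membrane proteoglycans whose ends can be cut off as anti-angiogenic fragments, each rose by 0.90 (SE 0.24) with TAC in Tg (adjusted p = 0.0116 and 0.00993), and both calls held without any 1 library. Col15a1 was 1957 to 3905 in Tg-Sham (median 3441) and 2559 to 8529 in Tg-TAC (median 6527), with Tg-TAC 6 the lowest. In Con the differences were 0.40 and 0.31 (adjusted p = 0.338 and 0.453). The gene Slc19a1 overlaps 8825 bases of Col18a1 on the opposite strand, at a mean of 100.1 against 517.7, and the sources do not say whether counting used strand.

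Collagen VIII is a short chain network collagen of vessel walls and the remodelled heart. It was the one type of which both chains were called higher with TAC in both genotypes. Col8a1 (ENSMUSG00000068196, chromosome 16, 57444621 to 57575100) was 431 to 537 in Con-Sham (median 502), 652 to 5433 in Con-TAC (median 1532), 636 to 1767 in Tg-Sham (median 970) and 442 to 7922 in Tg-TAC (median 5083). It rose by 1.74 in Con (SE 0.48, adjusted p = 0.0333, 6 of 6) and 1.88 in Tg (SE 0.48, adjusted p = 0.00853, 5 of 6). Col8a2 (ENSMUSG00000056174, chromosome 4, 126180586 to 126208123) was 3.30 to 9.93 in Con-Sham (median 5.84), 15.6 to 257 in Con-TAC (median 42.6), 8.56 to 47.2 in Tg-Sham (median 13.6) and 15.0 to 1108 in Tg-TAC (median 216). It rose by 2.70 in Con (SE 0.65, adjusted p = 0.0181) and 3.34 in Tg (SE 0.65, adjusted p = 0.00166), and fell by 2.49 with MitoQ in Tg (SE 0.65, adjusted p = 0.00874). Neither chain overlapped between Con-Sham and Con-TAC (2.08% of all genes were higher without overlap), and in Tg-TAC the overlap with sham came from Tg-TAC 6, the lowest of its group for both. The Con call of Col8a2 was lost without Con-TAC 4, that of Col8a1 without Con-TAC 2, 4 or 6 or Con-Sham 3, 4, 5 or 6. Both Con calls were also lost with the name number as a covariate. Among libraries named 7 to 14 they were lost too (limma adjusted p = 0.125 for Col8a1 and 0.133 for Col8a2). The Tg calls held without any 1 library. Without Tg-TAC 6 the Tg rises were 2.48 for Col8a1 and 4.05 for Col8a2, and Col8a2 fell by 3.2 with MitoQ.

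The stretches before the 2 collagen VIII starts are shown because the chains rose together by different amounts and lie on different chromosomes, at chr16:57754738-57754857 (-) and chr4:126286674-126286793 (+) on GRCm38.p6.
Col8a1: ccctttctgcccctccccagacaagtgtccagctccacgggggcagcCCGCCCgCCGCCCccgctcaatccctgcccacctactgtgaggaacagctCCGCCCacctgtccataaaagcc
Col8a2: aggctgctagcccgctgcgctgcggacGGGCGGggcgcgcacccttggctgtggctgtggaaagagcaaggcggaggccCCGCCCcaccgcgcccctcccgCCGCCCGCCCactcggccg
Both hold GGGCGG on one strand or the other, 3 times in Col8a1 and 4 times in Col8a2, of which the last 2 overlap. Neither holds TATAAA or CCAAT in these 120 bases.

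The 4 transmembrane chains (Col13a1, Col17a1, Col23a1, Col25a1) passed in no comparison, and their means over 36 libraries were 5.97 to 71.2. Among the remaining 3, Col26a1 rose with TAC in Tg by 1.55 (SE 0.43, adjusted p = 0.0131), from 2.25 to 14.7 in Tg-Sham to 15.0 to 47.3 in Tg-TAC with no overlap, and the call held without any 1 library. Col28a1, a chain found around peripheral nerve, rose in Con by 1.78 (SE 0.53, adjusted p = 0.0427), from 0 to 25.4 to 24.0 to 60.3, a call kept by 3 of 12 fits without 1 library, with a difference of 1.06 without Con-Sham 2. Col7a1, the anchoring fibril chain, passed in none. The 4 chains that were not tested stayed low, with Col2a1 at 0 to 53.9 and Col24a1 at 0 to 23.4.

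Ratios of 2 chains in a library, in which its scaling cancels, were compared in 5 pairs and 4 comparisons by exact two-sided permutation, adjusted over the 20 tests, with 0.00216 the smallest p possible. The log2 ratio of Col4a1 to Col4a2 kept a narrow range, with group means of 0.34 to 0.44, and Col1a1 to Col1a2 one of -0.36 to -0.22, and none of their 8 tests passed. The ratio of Col3a1 to Col1a1 was 1.27 ± 0.15 in Tg-Sham, 0.97 ± 0.15 in Tg-TAC and 1.26 ± 0.11 in Tg-TAC-MQ (SD, n = 6). It fell by 0.29 with TAC in Tg (exact adjusted p = 0.0346) and rose by 0.28 with MitoQ in Tg (exact adjusted p = 0.0346), against -0.09 and -0.01 in Con (exact adjusted p = 0.693 and 0.972). In the same hearts Col6a1 to Col6a2 fell by 0.096 and rose by 0.075 (exact adjusted p = 0.0346 each).

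Col8a1 to Col8a2 shifted most. Its mean was 6.15 ± 0.42 in Con-Sham and 5.19 ± 0.62 in Con-TAC, a fall of 0.96 (exact adjusted p = 0.0361), and 5.73 ± 0.63 in Tg-Sham and 4.27 ± 1.2 in Tg-TAC, a fall of 1.46 (exact adjusted p = 0.0371). With MitoQ in Tg it was 5.62 ± 0.43, a rise of 1.35 (exact adjusted p = 0.0346), while in Con it was 5.70 ± 1.10 and differed by 0.51 (exact adjusted p = 0.693). This ratio also had the largest SD of the 5. Of the 20 tests 7 passed, and none passed without Tg-TAC 4, Tg-TAC 5 or Tg-TAC-MQ 1, 2 or 3, and 1 without Tg-TAC 1. The change of the ratio was not tested between the genotypes.

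**Figure D4:**
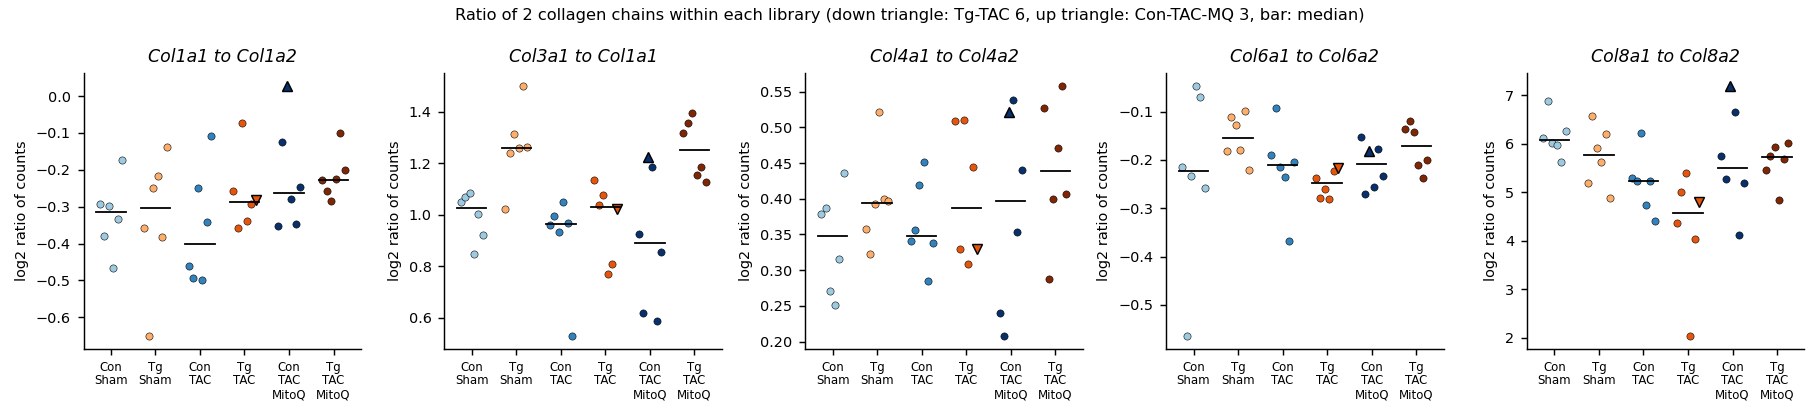
The log2 ratio of the counts of 2 chains in each library, each point 1 library and each bar the median of 6. The ratio of Col4a1 to Col4a2 has group means of 0.34 to 0.44, while Col8a1 to Col8a2 runs from a mean of 6.15 in Con-Sham to 4.27 in Tg-TAC.

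The genes that finish and bind collagen moved in part with the chains. Of 32 processing genes, 3 rose and 1 fell with TAC in Con (2.65% of all genes rose and 2.65% fell), with a median of 0.21. In Tg 15 rose and 3 fell (7.91% and 8.77% of all genes), with a median of 0.45, so the share that fell was near that of all genes. With the smallest adjusted p in Tg were the proline 3-hydroxylases P3h3 (log2 0.91, SE 0.19, adjusted p = 0.00273) and P3h2 (1.49, SE 0.33, adjusted p = 0.00391). Next came Crtap (0.41, SE 0.10, adjusted p = 0.00524) and Adamts2, which trims the ends of procollagen I (1.17, SE 0.28, adjusted p = 0.00619). Adamts3, another such protease, fell by 1.24 in Con (SE 0.26, adjusted p = 0.00804), from 148.2 ± 36.8 to 64.8 ± 25.3. Against Con-TAC, 14 of the 32 were higher and 1 lower in Tg-TAC (6.48% of all genes were called, 3.19% higher). At sham, where 0.873% of all genes were called, 2 were higher in Tg, Pcolce2 (0.86, SE 0.15, adjusted p = 0.00414) and Pcolce (0.89, SE 0.21, adjusted p = 0.0334), which speed the release of the C-terminal propeptide. With MitoQ in Tg 4 rose, a share near the 9.89% of all genes, among them Adamts3 (1.40, SE 0.26, adjusted p = 0.000686). Another 6 fell (7.44% of all genes), among them P3h2 by 1.37 (SE 0.33, adjusted p = 0.00543). In Con none passed in limma, with 3 at an unadjusted p under 0.05. Of 10 tested receptors and uptake genes, 3 rose with TAC in Tg (7.91% of all genes) and none in Con (limma; 3 unadjusted). In this list 1 gene was higher in Tg-TAC than in Con-TAC (3.19% of all genes) and 1 fell with MitoQ in Tg (7.44%).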

How the data were processed

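Whole-heart RNA was sequenced in 36 mouse libraries. The submitters' processing notes name Trim Galore, STAR and mm39. How reads were counted, with or without strand, and what computed the size factors is not stated there. The signal values deposited by the authors are gene read counts divided by 1 size factor per library, and 100% of them returned whole reads within 0.01. Samples were grouped by the labels' genotype, surgery and treatment. Genes reaching 10 in 6 or more libraries (16275 of 25626) were tested with limma 3.58.1 in R 4.3.3 on log2(value + 1), with 1 mean per group over all 36 libraries, a mean-variance trend, robust moderation and 30 residual degrees of freedom. Fold changes are on that scale, which understates low genes. On simulated data with 50 genes planted per size for TAC in Con, 54% of 1.5-fold and 96% of 2-fold changes were recovered among 16275 genes, with 12 false calls. Every simulated group took the spread of the Con-Sham libraries, and planted genes had a mean of at least 50. Real TAC groups vary more: the summed collagen level per kb had an SD of 854 in Con-Sham, 3837 in Con-TAC and 8948 in Tg-TAC. These rates therefore do not hold for the real comparisons. Libraries in a direction (5 of 6) are those beyond the other group's mean log2 value. Levels per kb used the transcript with the longest coding sequence in GENCODE M21. Promoters come from RefSeq on GRCm38.p6, with no conversion to mm39. No entry for Col1a1 was found there.

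Chains were described in full if their mean was at least 500 or they were called in any comparison (25 of 42), and up to 4 pathway genes per comparison were named by smallest adjusted p. Members, classes, pathway lists and marker lists were chosen with earlier results of these data known. Endothelial, mural, mesothelial and erythroid markers were also summed, with medians in Tg-TAC of 33191, 28917, 176.9 and 2284. Alternatives were other pseudocounts, filters and scalings, count tests on the recovered reads (edgeR 4.0.16, DESeq2 1.42.0), a replicate block, the library name number, fewer libraries and leaving out each library. On the recovered reads edgeR called 924 genes for TAC in Con and 2690 in Tg, where limma called 863 and 2716.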

Additional observations from a re-analysis of the deposited data

Results flagged for a closer look

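In 150 sets of 6 libraries (25 chains in 6 groups), 20 had 1 library far from the other 5, where chance flags about 1 in 20. The gap is given as a share of the group's whole log2 range. Tg-TAC 6 was low in 7 of them: Col4a2 (0.633), Col4a5 (0.688), Col9a2 (0.779, a count of 0), Col12a1 (0.656), Col14a1 (0.646), Col8a1 (0.750) and Col28a1 (0.706). For Col8a1 it held 442 where the other Tg-TAC libraries held 3846 to 7922.

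Con-TAC-MQ 3 was high for Col1a1 (0.685), Col5a1 (0.734), Col6a3 (0.845), Col16a1 (0.659) and Col8a1 (0.649), with 4539 for Col6a3 where the others of its group held 1434 to 1713. Con-TAC 6 was high for Col5a1 (0.695) and Col6a2 (0.671).

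The remaining 6 were spread over 5 libraries. Con-TAC 1 was low for Col5a3 (0.763), Tg-Sham 5 for Col4a5 (0.708) and Tg-Sham 2 for Col9a2 (0.739). Con-Sham 2 was low for Col12a1 (0.779) and Col28a1 (0.868), and Tg-TAC-MQ 6 was high for Col18a1 (0.772), at 864 where the others held 435 to 509.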

How the results depend on the processing

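Counts of chains called moved as follows. The share of all genes called in each of these fits is not given, so a larger count is not shown to be particular to collagen. With no filter TAC in Con gave 2, with DESeq2 12, with the name number class as covariate 0, among libraries named 7 to 14 0, and without the 4 libraries doubted on depth or markers (Tg-TAC 6, Tg-TAC 4, Con-TAC-MQ 5, Con-Sham 2) 8. From the compared libraries alone TAC in Tg gave 3, the Tg label in sham 10 and after TAC 0, TAC plus MitoQ 6 in Con and 2 in Tg. The Tg label after TAC gave 19 with the name number class, 14 with DESeq2 and 18 without the 4 libraries. Among libraries named 7 to 14, which leave out Tg-TAC 6 and Con-TAC 6 here, it gave 24. In sham DESeq2 gave 1. MitoQ in Con gave 1 with DESeq2, with the name number class and with the same total outside the mitochondrial genome. MitoQ in Tg gave 12 with the name number class, 10 with edgeR, 11 with DESeq2 and 14 without the 4 libraries. The name number class of the MitoQ libraries holds 1 vehicle library, Con-TAC 6, which alone sets the covariate for that class. Counts with the name number class therefore cannot separate the name number from that library. Among TAC libraries the class 29 to 31 holds only Tg-TAC 6, and its other members are sham. Counts for TAC and the Tg label with this covariate therefore cannot separate the name number from Tg-TAC 6 either. TAC plus MitoQ in Con gave 19 with the same total outside the mitochondrial genome, 2 with edgeR, 18 with DESeq2 and 6 without the 4 libraries. Without Con-TAC-MQ 3 and Tg-TAC 6, chosen after seeing the data, the Tg label after TAC gave 23, MitoQ in Con 1 and in Tg 19, the Tg label with MitoQ 3 and TAC plus MitoQ in Con 2.

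Leaving out 1 library at a time gave 1 to 4 for TAC in Con, 14 to 25 for TAC in Tg, 2 to 20 for the Tg label after TAC, 0 to 1 for MitoQ in Con, 3 to 17 for MitoQ in Tg, 0 to 1 for the Tg label with MitoQ, 0 to 1 for the genotype by MitoQ difference and 0 to 7 for the ratios. The ratios also gave 4 with a pseudocount of 10, and 0 among libraries named 7 to 14, without the 4 libraries and with the replicate block. The exact p cannot fall below 0.03125 with the block, over 20 tests, or 0.0179 among libraries named 7 to 14, over 10, so those zeros were nearly fixed by the design and say nothing of stability. Same-numbered libraries correlated at -0.48 to 0.31 in their deviations, so the numbers do not pair them; with the replicate block TAC in Con gave 4, TAC in Tg 17, the Tg label after TAC 8 and MitoQ in Tg 6. The causes were not tested. Libraries named 7 to 14 hold no MitoQ sample, so that alternative was not run there.

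Con-TAC 6 alone among the vehicle libraries shares the name number class of the MitoQ libraries, so it alone sets the covariate for them. It held the highest Con-TAC value for 29 of 38 chains, so the reversals below are not shown to come from the name number. The name number class, nearly one with MitoQ, turned the direction of 27 differences, none of them called. For TAC plus MitoQ in Con these were Col1a1 -0.49, Col1a2 -0.32, Col3a1 -0.13, Col5a1 -0.53, Col5a2 -0.66, Col11a1 -2.88, Col4a1 -0.22, Col4a2 -0.30, Col4a5 -0.42, Col6a1 -0.023, Col6a2 -0.068, Col9a2 -0.62, Col12a1 -1.56, Col14a1 -0.53, Col16a1 -0.77, Col15a1 -0.35, Col18a1 -0.13, Col8a1 -0.87 and Col8a2 -1.29. In Tg they were Col4a1 -0.28, Col4a2 -0.36, Col4a6 -0.20, Col6a1 -0.12, Col6a2 -0.13 and Col15a1 -0.37, and for MitoQ in Con Col4a6 -0.20 and Col25a1 -0.22.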
